A study of Mus musculus with 24 samples.

Results

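The G2 and mitosis genes are 35 genes of the last part of the cell cycle, taken by name and not by their values: the cyclins and kinases that start mitosis, the spindle checkpoint, the kinetochore, the spindle, the machinery of cell division and 2 genes of chromosome structure. All 35 were among the 24404 genes tested on the arrays. Of these members, 16 had 1 probe, 14 had 2 and 5 had 3; the brightest probe stood for the gene, and 31 of those 35 probes were above background on all 24 arrays, the lowest on 22.

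Marrow RNA was taken from 6-week-old female mice of the C57BL/6j strain, given olive oil, benzo[a]pyrene (BP), DMBA or TCDD by intraperitoneal injection, and each sample is described as a pool of 9, without saying of what. BP and DMBA are polycyclic aromatic hydrocarbons, TCDD is a persistent ligand of the aryl hydrocarbon receptor, and the cytochromes P450 CYP1A1 and CYP1B1 oxidise such hydrocarbons. The labels state 50 mg/kg for every agent. The groups were wild type (WT) with BP at 6 h (2 arrays), WT with DMBA at 12 h (3), WT with TCDD at 12 h (3), Cyp1b1-null with DMBA at 12 h (2), Cyp1b1-null with oil (2), Cyp1a1-null with BP at 12 h (3), Cyp1a1-null with oil (3), Cyp1b1/Cyp1a1-null (double-null below) with BP at 12 h (2), double-null with oil (1) and WT with oil (3). By the labels, every array carried the sample in Cy3 and one common reference, a pool of WT oil marrow, in Cy5, which the values of 1 array described below go against. Values below are log ratios, log2(Cy3/Cy5), and a change is a difference of group means of log ratios, given ± its standard error in the fit. In whole marrow, fewer dividing cells and less RNA per cell cannot be told apart.

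A cell enters mitosis when CDK1, bound to cyclin A or cyclin B, is freed from inhibition by the CDC25 phosphatases, and Polo-like and Aurora kinases act with it. The spindle checkpoint then holds the anaphase-promoting complex in check until every kinetochore is attached, after which cyclin B is destroyed and the cell divides. Most of these genes are transcribed in one wave in G2 through promoters that carry CCAAT boxes, bound by NF-Y, and a CHR element, bound by the MuvB complex with B-Myb and FOXM1. In marrow the proliferating erythroid, B-lymphoid and myeloid precursors express them.

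The promoters of 6 members that the results below turn on are printed because they cover both kinds of window, with and without these motifs, and both directions of change. They are from RefSeq (GRCm38.p6), run from 250 bases before to 50 after the gene's start, and are written on the gene's own strand. Capitals mark CCAAT or its reverse complement ATTGG, and the CHR core TTTGAA or TTTAAA or a reverse complement. Cdk1 lies at chr10:69352863-69353162 (minus strand), Ube2c at chr2:164769679-164769978 (plus), Cenpe at chr3:135212313-135212612 (plus), Prc1 at chr7:80294201-80294500 (plus), Mad2l1 at chr6:66534971-66535270 (plus) and Nusap1 at chr2:119618048-119618347 (plus).
Cdk1: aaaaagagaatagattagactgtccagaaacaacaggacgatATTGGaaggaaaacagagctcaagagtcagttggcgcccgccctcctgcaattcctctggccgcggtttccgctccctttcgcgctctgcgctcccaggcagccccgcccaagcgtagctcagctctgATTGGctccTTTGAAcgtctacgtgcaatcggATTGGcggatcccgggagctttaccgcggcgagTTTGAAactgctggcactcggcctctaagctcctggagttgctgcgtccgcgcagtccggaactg
Ube2c: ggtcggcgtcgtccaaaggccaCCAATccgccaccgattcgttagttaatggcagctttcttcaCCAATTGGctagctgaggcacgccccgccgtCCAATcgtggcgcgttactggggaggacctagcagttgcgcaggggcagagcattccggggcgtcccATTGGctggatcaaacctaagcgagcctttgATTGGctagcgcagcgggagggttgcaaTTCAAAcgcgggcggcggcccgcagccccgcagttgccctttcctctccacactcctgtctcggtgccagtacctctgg
Cenpe: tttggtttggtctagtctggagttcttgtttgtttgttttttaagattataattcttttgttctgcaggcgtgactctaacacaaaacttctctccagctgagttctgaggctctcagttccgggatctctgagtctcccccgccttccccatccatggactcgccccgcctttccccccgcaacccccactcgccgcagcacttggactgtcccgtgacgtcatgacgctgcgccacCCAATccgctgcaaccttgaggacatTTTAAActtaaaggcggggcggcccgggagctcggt
Prc1: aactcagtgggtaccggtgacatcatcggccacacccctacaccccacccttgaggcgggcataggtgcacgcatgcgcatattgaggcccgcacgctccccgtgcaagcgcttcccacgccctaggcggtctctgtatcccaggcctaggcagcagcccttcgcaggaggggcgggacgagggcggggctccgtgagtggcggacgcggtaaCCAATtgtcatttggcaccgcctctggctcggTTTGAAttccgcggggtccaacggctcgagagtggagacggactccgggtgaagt
Mad2l1: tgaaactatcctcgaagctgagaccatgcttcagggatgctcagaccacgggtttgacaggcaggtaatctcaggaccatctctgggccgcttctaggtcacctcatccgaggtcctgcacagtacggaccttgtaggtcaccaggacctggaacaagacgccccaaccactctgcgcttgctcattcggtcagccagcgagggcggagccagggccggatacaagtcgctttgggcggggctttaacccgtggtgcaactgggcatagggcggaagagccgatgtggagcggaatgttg
Nusap1: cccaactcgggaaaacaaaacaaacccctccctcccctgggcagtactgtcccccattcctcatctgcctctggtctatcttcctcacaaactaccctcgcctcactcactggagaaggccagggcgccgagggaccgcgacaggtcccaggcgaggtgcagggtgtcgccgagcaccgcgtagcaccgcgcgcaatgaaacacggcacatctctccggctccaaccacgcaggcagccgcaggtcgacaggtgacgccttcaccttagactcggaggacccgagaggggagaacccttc

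The Cdk1 window held 3 CCAAT and 2 CHR matches and the Ube2c window 6 CCAAT and 1 CHR match. Those of Cenpe and Prc1 each held 1 of either kind, and those of Mad2l1 and Nusap1 none. A window was found for 30 of the 35 members; Ccna2, Cdc25c, Aurkb, Kif20a and Tpx2 had no entry. CCAAT on either strand was in 23 of the 30 (76.7%), against 37.9% of all 27025 windows, and 15 of the 30 held 2 or more copies. The CHR core was in 24 of the 30 (80%), against 27.8% of all windows, and both motifs were in 20 (66.7%), against 10.9%. Nuf2 shared the empty window with Mad2l1 and Nusap1. Bub1, Cdc25b and Ska2 held CCAAT alone, and Anln, Birc5, Kif2c and Ndc80 held CHR alone.

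One array stood apart and bears on every comparison with WT oil. On WT oil replicate 1 all 35 members had a log ratio above 0, from 0.57 (Cdc25c) to 6.10 (Mki67), with a median of 3.39. On the other 23 arrays the members' median lay between -0.37 and 0.15. The difference sat mainly in the reference channel: the members' median percentile among all genes was 52.5 in Cy5 and 82.3 in Cy3 of that array, against 87.2 to 90.6 in Cy5 and 86.3 to 90.2 in Cy3 of the others. Genes of liver, a tissue that the labels do not name, had a median percentile of 99.6 in Cy5 and 92.8 in Cy3 of that array, and at most 34.3 in either channel elsewhere. Its Cy5 channel went against its label of a marrow pool; what it holds was not tested, and every result against WT oil is given from all 24 arrays and from the 23 without it.

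**Figure D1:**
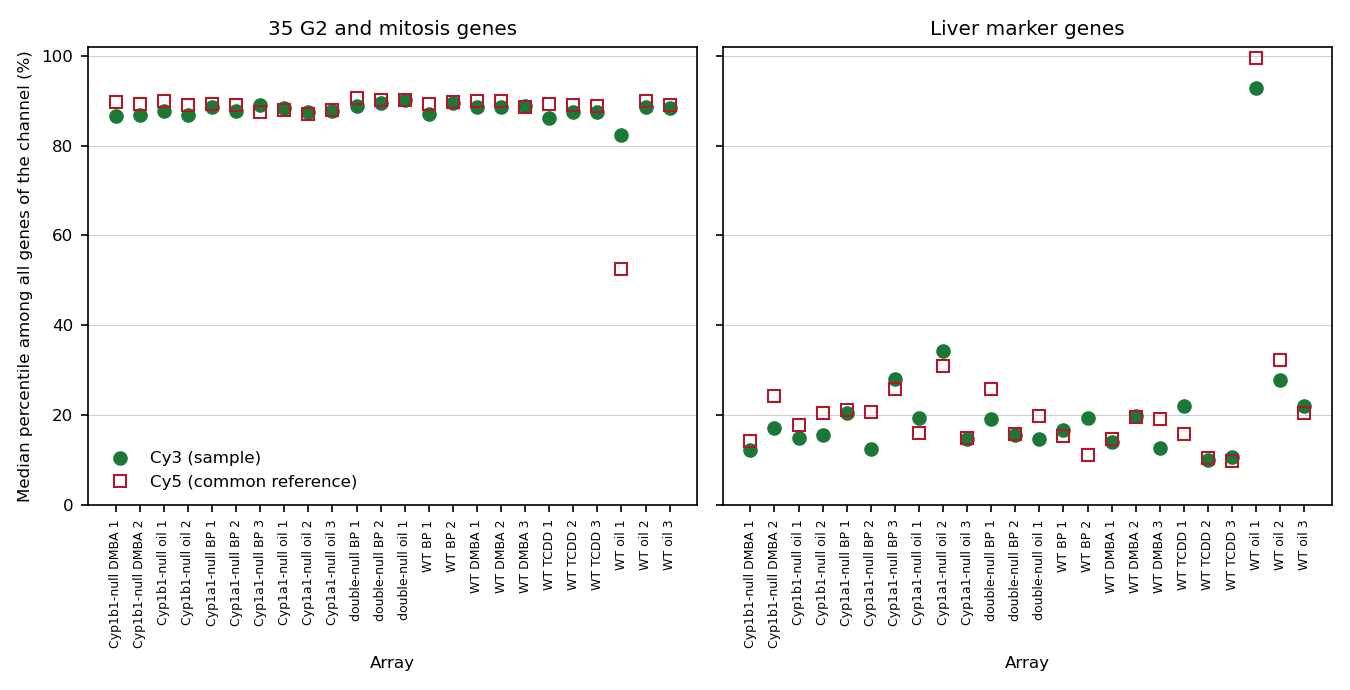
Median percentile (0 to 100) of the G2 and mitosis genes and of the liver markers among all genes of a channel, on each array. Filled circles are Cy3 (sample) and open squares Cy5 (common reference). On WT oil replicate 1 the members' Cy5 median is 52.5, and it lies between 87.2 and 90.6 on the other 23 arrays.

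**Figure D2:**
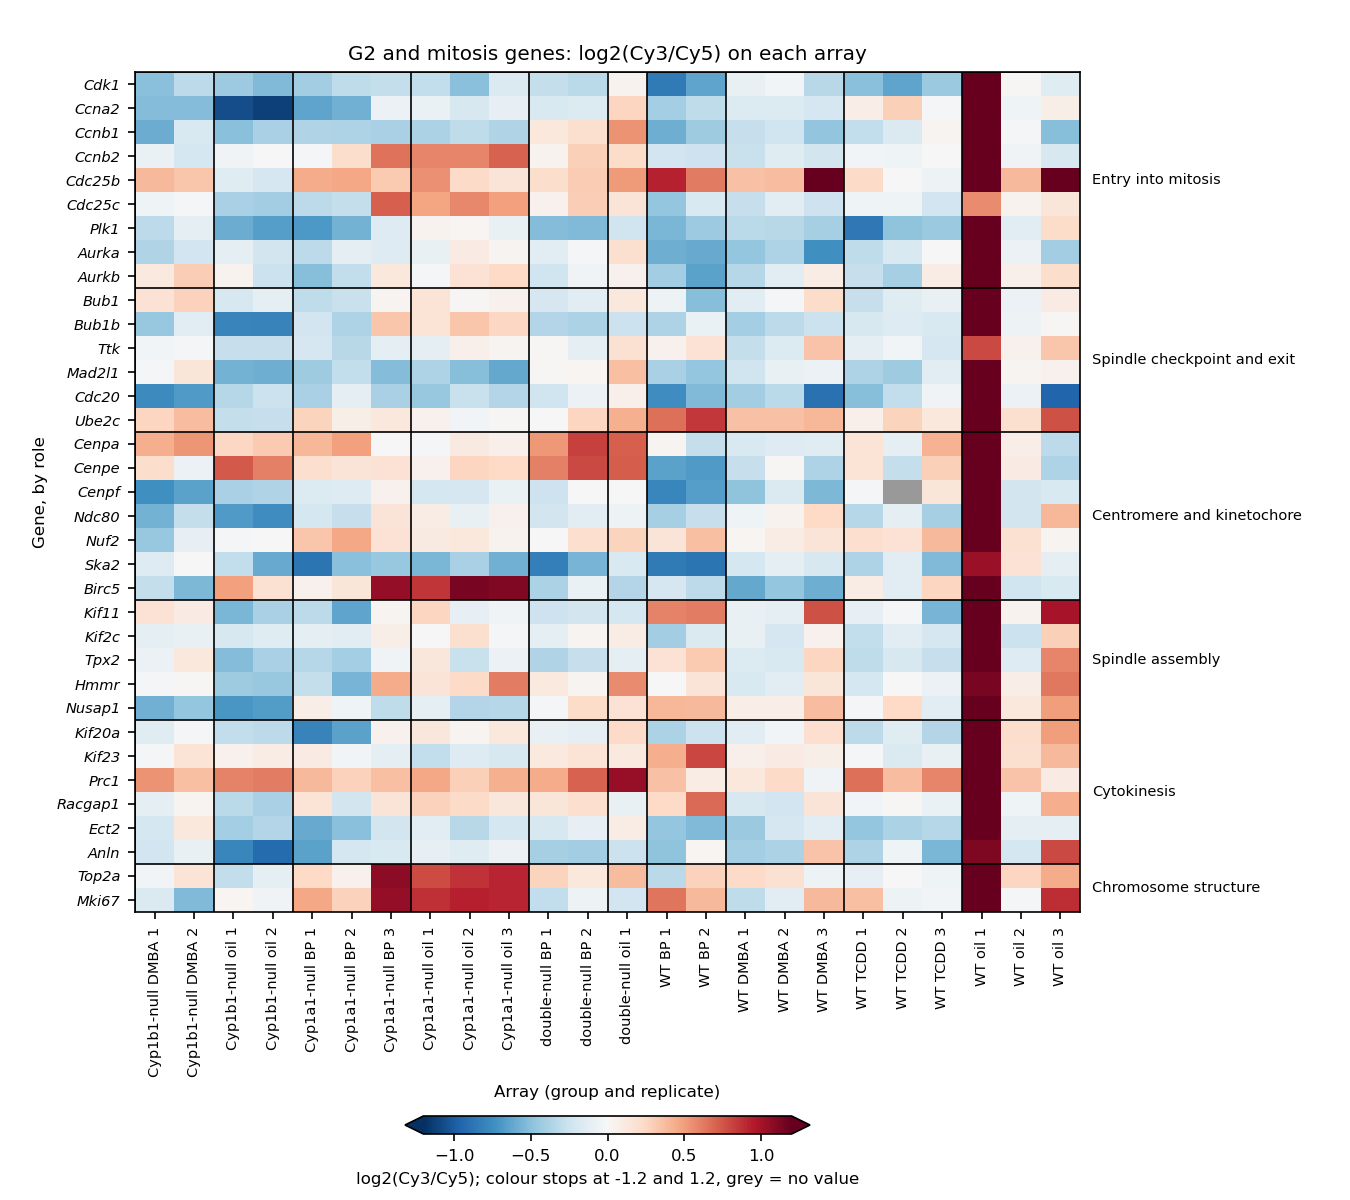
Log ratio, log2(Cy3/Cy5), of each of the 35 genes (rows, grouped by role) on each of the 24 arrays (columns); the colour scale stops at both ends, and grey marks the 1 missing value, Cenpf on WT TCDD replicate 2. WT oil replicate 1 is high for all 35 genes, and Top2a, Mki67 and Birc5 are high on all 4 arrays of one slide, the 3 Cyp1a1-null oil arrays and Cyp1a1-null BP replicate 3.

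The 24 arrays came from 10 slides, and over the 35 genes the median correlation of 2 arrays' log ratios was 0.88 for arrays of one group on one slide (12 pairs) and 0.76 for arrays of different groups on one slide (11 pairs). It was 0.53 for arrays of one group on different slides (5 pairs) and 0.35 for different groups on different slides (225 pairs). Arrays share the reference, so these correlations describe the data and are no test. The Cyp1b1-null DMBA, WT TCDD, WT BP and double-null arrays each lay on a slide of their own, where slide and group cannot be told apart. The remaining WT oil replicates, on different slides, differed from each other too: replicate 3 minus replicate 2 had a median of 0.15 over the members and ran from -0.88 (Cdc20) to 1.199 (Cdc25b), and 10 genes were over 0.5 apart.

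The deleted genes were checked first. The Cyp1a1 probe was above background on none of the 9 Cyp1a1-null and double-null arrays (0 of 9, log ratios -0.43 to 0.11), and on 10 of the 15 others (-0.11 to 1.94). Its log ratio was 1.71 and 1.94 in WT BP, 1.76 to 1.93 in WT DMBA and 0.18, 0.15 and 1.55 in WT TCDD. It was 0.23 and 0.04 in Cyp1b1-null DMBA, 0.02 and -0.01 in Cyp1b1-null oil and 0.03, -0.11 and 0.48 in WT oil. The brightest Cyp1b1 probe was above background on all 7 Cyp1b1-null and double-null arrays (0.06 to 1.57), and on 12 of the 17 others (-0.28 to 0.90). A second Cyp1b1 probe was above background on 6 of the 7 and on 7 of the 17. Which part of Cyp1b1 was deleted is not stated in the labels, so these probes do not check that label, and the groups are called as labelled. In the Cy3 channel, the median percentile of neutrophil granule genes was 98.8 to 99.8 on all 24 arrays. That of B progenitor genes was 74.2 to 90.8 on the 23 arrays and 89.8 on WT oil replicate 1, and that of erythroid genes 86.8 to 93.8 on the 23 arrays and 82.6 on WT oil replicate 1.

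The comparison with the most members called was Cyp1b1-null against WT marrow after oil. With the 23 arrays, 17 of the 35 genes were lower in Cyp1b1-null marrow and 2 were higher, at an adjusted p under 0.05. With all 24 arrays 8 were lower and none was higher. Over all genes tested, 29.7% were called with the 23 arrays, 12.4% as lower and 17.3% as higher, and 15.5% with all 24, so calls were common throughout this comparison. The members' median change was -0.47 with the 23 arrays (28 of 35 below 0) and -1.42 with all 24 (35 below 0), against 0.06 over all genes in both. The 2 Cyp1b1-null oil arrays shared a slide with Cyp1a1-null BP replicates 1 and 2, and with no WT oil array. Slide and genotype therefore cannot be told apart in this comparison. On that slide Cyp1b1-null oil minus Cyp1a1-null BP had a median of -0.08 over the members, against -0.04 over all genes. Of the members 24 were below 0 and 11 above.

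Among the genes of mitotic entry, 4 of 9 were lower: Ccna2, Cdc25b, Plk1 and Cdk1. Ccna2, the cyclin A of S and G2 phase, had log ratios of -1.07 and -1.12 on the Cyp1b1-null oil arrays, against -0.06 and 0.07 on WT oil replicates 2 and 3 and 4.31 on replicate 1. Both null arrays lay below every WT oil array. Its change was -1.10 ± 0.15 (adjusted p = 0.000311) with the 23 arrays and -2.53 with all 24, called in both. Cdc25b, a phosphatase that activates CDK1, changed by -1.16 ± 0.30 (adjusted p = 0.00955), Plk1, the Polo-like kinase, by -0.67 ± 0.17 and Cdk1 by -0.42 ± 0.13. The 2 WT oil arrays behind the Cdc25b change were far apart, at 0.39 and 1.58, with the Cyp1b1-null arrays at -0.14 and -0.20.

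Of the 6 checkpoint and exit genes 4 were lower. Mad2l1, which holds the anaphase-promoting complex inactive, had log ratios of -0.56 and -0.58 in Cyp1b1-null oil, against 0.03 and 0.05 in WT oil replicates 2 and 3 and 2.83 in replicate 1. Its change with the 23 arrays was -0.62 ± 0.12 (adjusted p = 0.00215), and the tight pairs of arrays did not overlap. Ube2c, the ubiquitin-conjugating enzyme of the same complex, had -0.29 and -0.28 in Cyp1b1-null oil, against 0.19, 0.76 and 4.21 in WT oil replicates 2, 3 and 1. Its change was -0.76 ± 0.15 (adjusted p = 0.00223). The checkpoint kinases Bub1b (-0.78 ± 0.17) and Ttk (-0.47 ± 0.16) were the other 2 called.

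Of the 6 roles, spindle assembly had the lowest median, -0.80, with 4 of 5 genes lower. Nusap1, which binds and bundles spindle microtubules, had log ratios of -0.70 and -0.67 in Cyp1b1-null oil, against 0.12, 0.50 and 5.22 in WT oil replicates 2, 3 and 1. Its change with the 23 arrays was -0.996 ± 0.164 (adjusted p = 0.000925). Kif11, the motor that pushes spindle poles apart, changed by -0.99 ± 0.30, Hmmr, a spindle-associated protein, by -0.80 ± 0.24 and Tpx2, an activator of Aurora A, by -0.67 ± 0.21. Kif2c, a microtubule-depolymerising kinesin, was not called.

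Cytokinesis and kinetochore genes were mixed. Anln, a scaffold of the cleavage furrow, changed by -1.14 ± 0.28, Kif20a, a central-spindle kinesin, by -0.66 ± 0.20 and Racgap1, the GTPase-activating subunit of centralspindlin, by -0.55 ± 0.18, all called as lower with the 23 arrays. Ndc80, the kinetochore's microtubule-binding subunit, was lower (-0.80 ± 0.18), and so was Ska2 (-0.49 ± 0.17). The 2 genes called as higher were Prc1, which crosslinks midzone microtubules, and Cenpe, a kinetochore kinesin.

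Prc1 had log ratios of 0.59 and 0.61 in Cyp1b1-null oil, against 0.34 and 0.10 in WT oil replicates 2 and 3, a change of 0.38 ± 0.14 (adjusted p = 0.0465). Cenpe had 0.74 and 0.60 in Cyp1b1-null oil, against 0.09 and -0.37 in those WT oil arrays, a change of 0.81 ± 0.18 (adjusted p = 0.00463). With all 24 arrays both changes turned, since WT oil replicate 1 read 4.72 for Prc1 and 6.06 for Cenpe. The 3 Cenpe probes disagreed, with changes from -1.49 to 0.81. In all, the probes of 15 of the 18 members with several usable probes had one sign in this comparison. That count was 9 in BP in WT, Cyp1a1-null oil, BP in double-null, DMBA against TCDD and Cyp1b1-null against WT DMBA. It was 10 in double-null oil and 12 to 15 in the rest. The 16 members not called with the 23 arrays were Ccnb1, Ccnb2, Cdc25c, Aurka, Aurkb, Bub1, Cdc20, Cenpa, Cenpf, Nuf2, Birc5, Kif2c, Kif23, Ect2, Top2a and Mki67.

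The count rested on few arrays. Leaving out a further array gave 21 members called without WT oil replicate 2 (34.9% of all genes), 5 without WT oil replicate 3 (10.6%), 11 without Cyp1b1-null oil replicate 1 (14.3%) and 7 without Cyp1b1-null oil replicate 2 (13.8%). With slide as a random block 6 were called with the 23 arrays (Nusap1, Ccna2, Cdc25b, Mad2l1, Ube2c and Anln, all lower) and none with all 24 (0 at adjusted p under 0.05). On the Cy3 channel alone the median change with the 23 arrays was -0.39 for the members and -0.37 for all genes, and 3 members were called as lower.

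**Figure D3:**
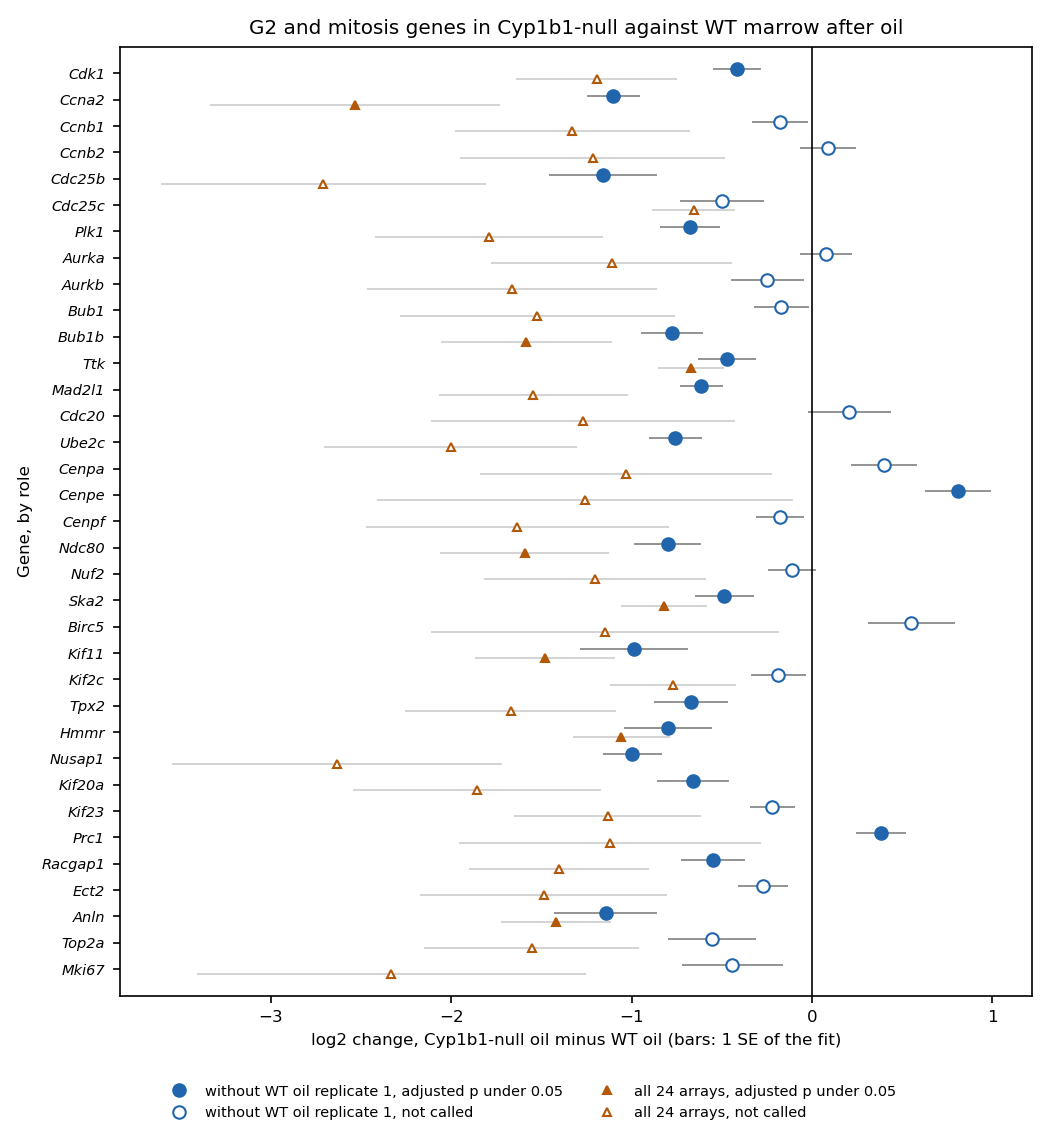
Log2 change of each of the 35 genes, Cyp1b1-null oil minus WT oil, with standard errors as bars; circles are the fit without WT oil replicate 1 and triangles the fit of all 24 arrays, filled where the adjusted p was under 0.05. Of the circles 17 filled ones lie below 0 and 2, Cenpe and Prc1, above it.

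Related lists are given by their counts in the same comparison (23 arrays), where 12.4% of all genes were lower and 17.3% higher, 29.7% in all. Other spindle and cytokinesis genes were lower in 11 of 24 and higher in none, and other kinetochore and checkpoint genes lower in 7 and higher in 1 of 23; Bub3, a partner of the checkpoint kinases, changed by -0.93 ± 0.13. S phase genes were lower in 11 and higher in 2 of 30. Anaphase-promoting complex genes were lower in 2 and higher in 4 of 17: Fbxo5, an inhibitor of that complex, changed by -1.18 ± 0.15. Condensin and cohesin genes were lower in 3 and higher in 1 of 16, regulators of the G2 wave lower in 3 and higher in 3 of 18, and inhibitors of mitotic entry lower in 6 and higher in 2 of 15. The shares called among the anaphase-promoting complex genes, the condensin and cohesin genes and the regulators lay near that of all genes.

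Markers of the cells that make up marrow were read in the same arrays. The erythroid list's median log ratio was -0.56 to -0.39 in Cyp1b1-null oil, against -0.18 to 0.26 in WT oil replicates 2 and 3, with 5 of 15 genes lower and none higher. The B progenitor list's was -0.36 to -0.23 in Cyp1b1-null oil, against 0.27 to 0.30 in WT oil, with 5 of 13 lower and 1 higher. The neutrophil list's was 0.47 to 1.14 in Cyp1b1-null oil, against -0.31 to 0.35 in WT oil, with 4 of 13 higher and 1 lower. The monocyte and macrophage list's was 0.60 to 0.68 in Cyp1b1-null oil, against 0.00 to 0.14 in WT oil, with 5 of 10 higher and none lower. Their part in the members' change was not tested.

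With the 23 arrays, DMBA in Cyp1b1-null marrow gave 3 members called, a share of the 35 near that of all genes. Over the 35 genes the median change of Cyp1b1-null DMBA against Cyp1b1-null oil was 0.27, with 26 above 0, against -0.01 over all genes. With the 23 arrays Mad2l1, Ube2c and Ccna2 were called, all higher, where 7.51% of all genes were called; with all 24 arrays no member was (0.0246% of all genes), and none had an unadjusted p under 0.05. The array left out is in neither of these groups, so its absence changed only the shared estimate of the spread.

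Mad2l1 had log ratios of -0.02 and 0.15 in Cyp1b1-null DMBA, against -0.56 and -0.58 in Cyp1b1-null oil, a change of 0.64 ± 0.12 (adjusted p = 0.00653). Ube2c had 0.26 and 0.37 in Cyp1b1-null DMBA, against -0.29 and -0.28 in Cyp1b1-null oil, a change of 0.60 ± 0.15 (adjusted p = 0.0232). Ccna2 had -0.52 and -0.52 in Cyp1b1-null DMBA, against -1.07 and -1.12 in Cyp1b1-null oil, a change of 0.57 ± 0.15 (adjusted p = 0.0277). In each the DMBA pair lay above the oil pair without overlap, and the gene was one of those lower in Cyp1b1-null oil than in WT oil. The 2 comparisons share the Cyp1b1-null oil arrays. Members far from a call also had no overlap, such as Kif2c (0.07, adjusted p = 0.89), and the share of all genes without overlap was not counted. The next gene, Cenpe, had a change of -0.60 (adjusted p = 0.0541).

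All 3 calls were lost with the scanner's processed signals, where the adjusted p was 0.101 for Mad2l1, 0.0751 for Ube2c and 0.0622 for Ccna2, and with slide as a random block. On Cy3 alone Mad2l1 (-0.39) and Ube2c (-0.11) turned, and the members' median was -0.10, while the median of all genes shifted by 0.31. The oil and DMBA arrays lay on different slides, and slide and treatment cannot be told apart here. Leaving out either Cyp1b1-null oil array, or Cyp1b1-null DMBA replicate 2, left no member called (0 of 35), and leaving out Cyp1b1-null DMBA replicate 1 left 1.

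The response to DMBA was then set against that of WT. The response of Cyp1b1-null minus that of WT had a median of 0.47 over the members with the 23 arrays, 28 of them above 0, and of 1.46 with all 24. Tested as an interaction with the 23 arrays, the difference was called for Mad2l1 (0.81 ± 0.16, adjusted p = 0.0201) and Ccna2 (0.76 ± 0.20, adjusted p = 0.049), where 3.04% of all genes were called. With all 24 arrays no member was called (0.0082% of all genes), and 9 had an unadjusted p under 0.05. Leaving out WT oil replicate 2 as well left 1 WT oil array and gave a median of 0.56, and leaving out WT oil replicate 3 instead gave 0.35. The calls did not hold on leaving out WT oil replicate 3, WT DMBA replicate 1, either Cyp1b1-null oil array or Cyp1b1-null DMBA replicate 2. Nor did they hold with slide as a random block (0 of 35). Leaving out Cyp1b1-null DMBA replicate 1 gave a median of 0.48. Without WT DMBA replicate 2, 1 member was called, and without WT DMBA replicate 3, 3 were. These counts stand without the share of all genes.

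**Figure D4:**
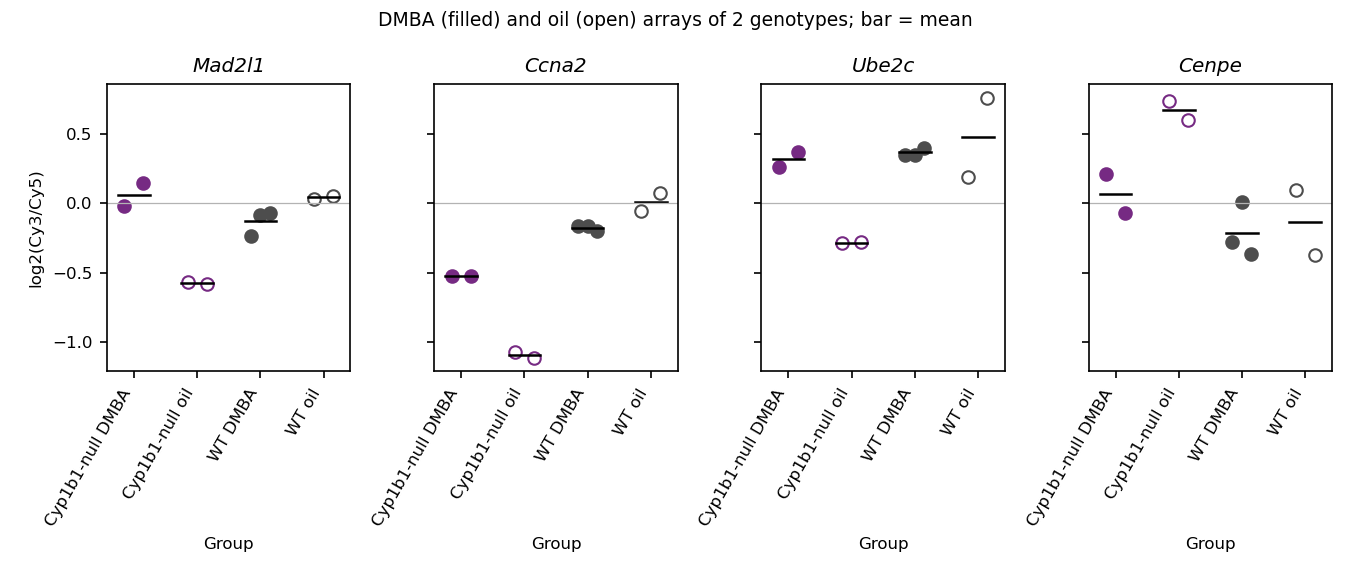
Log ratio on each array of the 2 genotypes after DMBA (filled) and oil (open), 1 panel a gene, without WT oil replicate 1; bars are group means. In Mad2l1, Ube2c and Ccna2 the Cyp1b1-null DMBA pair lies above the Cyp1b1-null oil pair.

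The genotypes were also compared after DMBA. Between Cyp1b1-null DMBA and WT DMBA the members' median difference was 0.01 (18 above 0 and 17 below, from -0.70 to 0.64), and 1 member was called with the 23 arrays (1.59% of all genes) and none with all 24 (0.102%; 0 members at an unadjusted p under 0.05). That member was Nusap1, with -0.58 and -0.46 in Cyp1b1-null DMBA, against 0.08, 0.08 and 0.37 in WT DMBA, a difference of -0.70 ± 0.15 (adjusted p = 0.0244). Nusap1 was also one of the 17 members called as lower in Cyp1b1-null marrow after oil. Leaving out any 1 of these 5 arrays ended that call, and so did slide as a random block (adjusted p = 0.522).

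In WT marrow DMBA gave no member past the test with either set of arrays, where 0.0983% of all genes were called with the 23 and 0% with all 24. The members' median change was -0.21 with the 23 arrays and -1.35 with all 24, and 34 and 35 of the 35 genes were below 0; 2 and 28 had an unadjusted p under 0.05. The 3 smallest p with the 23 arrays were those of Plk1, Aurka and Bub1b. Plk1 had -0.33, -0.33 and -0.40 in WT DMBA, against -0.13 and 0.22 in WT oil replicates 2 and 3 (change -0.40 ± 0.15, adjusted p = 0.395). Aurka, the Aurora kinase of the spindle poles, had -0.46, -0.37 and -0.73 in WT DMBA, against -0.07 and -0.42 in WT oil (-0.28 ± 0.13, adjusted p = 0.548). Bub1b had -0.40, -0.31 and -0.26 in WT DMBA, against -0.06 and 0.01 in WT oil (-0.30 ± 0.16, adjusted p = 0.623).

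The shared slide gave a comparison within a batch. WT DMBA replicates 1 and 2 lay on one slide with WT oil replicate 2, and there the members' median difference was -0.18, with 32 of 35 below 0, against -0.01 over all genes. WT DMBA replicate 3 and WT oil replicate 3, on different slides, had a correlation of 0.91 over the members and a median difference of -0.23, with 28 below 0. Replicate 3 of DMBA correlated less with DMBA replicates 1 and 2 (0.62 and 0.57) than with that oil array. In the authors' deposited table, all 35 members had a log2 fold below 0 for DMBA in WT, with a median of -0.23.

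BP at 6 h in WT gave 4 lower members with the 23 arrays (3.86% of all genes called) and 1, Ska2, with all 24 (0.729%). The median change was -0.28 with the 23 arrays (27 below 0) and -1.43 with all 24 (35 below 0). Ska2, a subunit of the complex that couples kinetochores to microtubules, had -0.85 and -0.88 in WT BP, against 0.18 and -0.11 in WT oil replicates 2 and 3 and 1.03 in replicate 1. Its change was -0.90 ± 0.17 (adjusted p = 0.00778) with the 23 arrays and -1.23 (adjusted p = 0.0294) with all 24. Cdk1, the kinase that drives mitotic entry, had -0.85 and -0.63 in WT BP, against 0.01 and -0.14 in WT oil, a change of -0.68 ± 0.13 (adjusted p = 0.0108).

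Mad2l1 had -0.39 and -0.46 in WT BP, against 0.03 and 0.05 in WT oil (-0.47 ± 0.12, adjusted p = 0.0384). Cenpf, a kinetochore and centromere protein of G2, had -0.78 and -0.67 in WT BP, against -0.22 and -0.18 in WT oil (-0.52 ± 0.13, adjusted p = 0.0384). For these 4 genes the WT BP arrays lay below every WT oil array, as they did in members not called, such as Ccnb2 (-0.12, adjusted p = 0.739). The second, dimmer Cdk1 probe went the other way, at 0.10, and the probes of only 9 of 18 members had one sign. Without WT BP replicate 1 no member was called and without WT BP replicate 2 only 1 (0 and 1 of 35); with the scanner's processed signals none was, and on Cy3 alone Cdk1 turned (0.015). The WT BP arrays filled a slide of their own, and with slide as a random block no member was called with either set of arrays (0 of 35; adjusted p from 0.278 for Ska2 to 0.541 for Cenpf with the 23). With the 23 arrays 8 members lay on the other side, above 0, and none of them was called. Kif23 had 0.43 and 0.80 in WT BP, against 0.19 and 0.39 in WT oil replicates 2 and 3 (0.33, adjusted p = 0.155). Ube2c had 0.66 and 0.85 in WT BP, against 0.19 and 0.76 in those WT oil arrays.

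TCDD at 12 h in WT gave 3 lower members with the 23 arrays (6.17% of all genes called) and none with all 24 (2.2%; 23 members at an unadjusted p under 0.05). The share of the 35 called with the 23 arrays was near that of all genes. The median change was -0.28 with the 23 arrays (24 below 0) and -1.24 with all 24. Plk1 had -0.86, -0.48 and -0.45 in WT TCDD, against -0.13 and 0.22 in WT oil (-0.64 ± 0.15, adjusted p = 0.025). Cdk1 had -0.50, -0.63 and -0.45 in WT TCDD, against 0.01 and -0.14 in WT oil (-0.46 ± 0.12, adjusted p = 0.0372). Kif20a had -0.32, -0.15 and -0.35 in WT TCDD, against 0.21 and 0.50 in WT oil (-0.63 ± 0.18, adjusted p = 0.0497).

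The TCDD arrays lay below the WT oil arrays in these 3 genes, as they did in Cdc25c, which was not called. The spindle genes, with 5 of 5 below 0 and a median of -0.45, had none called. The dimmer Cdk1 probe again went the other way (0.16). Leaving out WT oil replicate 2 as well left 1 WT oil array and gave a median of -0.38. The calls did not hold on leaving out WT oil replicate 3 (median -0.11) or WT TCDD replicate 1. Leaving out WT TCDD replicate 2 or 3 left 1 member called, a count without the share of all genes. None was called with either set once slide was a random block (0 of 35).

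DMBA and TCDD could be set against each other at one time and without the oil arrays. Between WT DMBA and WT TCDD 3 members were called with the 23 arrays (6.28% of all genes) and none with all 24 (0.647%; 0 members at an unadjusted p under 0.05), around a median difference of 0.08. The 3 called members were a share of the 35 near that of all genes. Prc1 had 0.13, 0.23 and -0.04 in WT DMBA, against 0.66, 0.37 and 0.58 in WT TCDD (-0.43 ± 0.11, adjusted p = 0.0291). Cenpf had -0.48, -0.17 and -0.54 in WT DMBA, against -0.03 and 0.15 in WT TCDD, with no value on the other TCDD array (-0.46 ± 0.12, adjusted p = 0.0342). Cdk1 had -0.09, -0.03 and -0.33 in WT DMBA, against -0.50, -0.63 and -0.45 in WT TCDD (0.37 ± 0.11, adjusted p = 0.049).

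The groups did not overlap in these 3 genes, with Prc1 and Cenpf lower and Cdk1 higher after DMBA. They did not overlap in members far from a call either, such as Bub1b (-0.15, adjusted p = 0.678). A second probe read 0.00 for Cenpf and -0.10 for Cdk1. Leaving out WT DMBA replicate 1, WT TCDD replicate 1 or WT TCDD replicate 3 left none called. The WT TCDD arrays lay on a slide of their own, and with slide as a random block none was called with either set (0 of 35). There Prc1 (0.35) and Cenpf (0.38) turned in sign with all 24 arrays, and with the 23 they were at -0.49 and -0.46. For the remaining 32 genes these data gave no call. Ccng1, a p53 target on the list of inhibitors of mitotic entry, differed by 1.73 ± 0.15 (adjusted p = 2.62e-05), and Cdkn1a, the CDK inhibitor p21, by 1.03 ± 0.21 (adjusted p = 0.00795), both higher after DMBA.

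Cyp1a1-null marrow after oil had members on both sides. Against WT oil 2 were higher and 5 lower with the 23 arrays (7.6% of all genes called), and 1, Ska2, was lower with all 24 (3.59%). The median change was -0.02 with the 23 arrays and -1.23 with all 24. Birc5, or survivin, the centromere-targeting subunit of the Aurora B complex, had 0.86, 1.14 and 1.11 in Cyp1a1-null oil, against -0.24 and -0.18 in WT oil replicates 2 and 3 and 4.89 in replicate 1. Its change was 1.25 ± 0.22 (adjusted p = 0.00449). Ccnb2, a B-type cyclin, had 0.58, 0.59 and 0.70 in Cyp1a1-null oil, against -0.04 and -0.19 in WT oil (0.74 ± 0.14, adjusted p = 0.00716).

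Both lay above WT oil replicates 2 and 3 and below replicate 1, and turned in sign with all 24 arrays. Mad2l1 had -0.37, -0.52 and -0.61 in Cyp1a1-null oil, against 0.03 and 0.05 in WT oil (-0.54 ± 0.11, adjusted p = 0.00892). Kif23, the kinesin subunit of centralspindlin, had -0.30, -0.15 and -0.20 in Cyp1a1-null oil, against 0.19 and 0.39 in WT oil (-0.51 ± 0.11, adjusted p = 0.0147). The other lower genes were Nusap1 (-0.58 ± 0.15), Ska2 (-0.54 ± 0.15) and Ube2c (-0.47 ± 0.14). Leaving out WT oil replicate 3 as well left 1 WT oil array and gave a median of 0.05, and most of the calls did not hold. Leaving out WT oil replicate 2 instead gave a median of -0.18. No member was called with slide as a random block (0 of 35 with either set). The Cyp1a1-null oil arrays shared a slide with Cyp1a1-null BP replicate 3 and no WT oil array, so slide and genotype cannot be told apart. That BP array read 1.06 for Birc5 and 0.65 for Ccnb2. On another slide, BP replicates 1 and 2 read 0.05 and 0.15 for Birc5 and -0.02 and 0.21 for Ccnb2. There Mad2l1 (-0.42 and -0.29) and Ska2 (-0.88 and -0.50) were below 0, and Kif23, Nusap1 and Ube2c lay between -0.05 and 0.26.

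BP in Cyp1a1-null marrow gave no member past the test, with 0.156% of all genes called with the 23 arrays and 0.0328% with all 24. The members' median change was -0.20, with 26 of 35 below 0, and 10 members had an unadjusted p under 0.05 with the 23 arrays and 1 with all 24. Kif20a, Plk1 and Birc5 had the smallest p. Kif20a had -0.81, -0.65 and 0.05 in Cyp1a1-null BP, against 0.14, 0.03 and 0.12 in Cyp1a1-null oil (-0.56 ± 0.16, adjusted p = 0.0715). Plk1 had -0.69, -0.57 and -0.16 in Cyp1a1-null BP, against 0.04, 0.02 and -0.09 in Cyp1a1-null oil (-0.46 ± 0.14, adjusted p = 0.0715). Birc5 had 0.05, 0.15 and 1.06 in Cyp1a1-null BP, against 0.86, 1.14 and 1.11 in Cyp1a1-null oil (-0.62 ± 0.20, adjusted p = 0.0816).

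In each of these genes BP replicates 1 and 2 lay far from replicate 3, and replicate 3 lay near or among the oil arrays. Replicate 3 shared a slide with the 3 oil arrays, and replicates 1 and 2 lay on another. On the shared slide the members' median difference was 0.01, with 19 above 0 and 16 below 0, and replicate 3 correlated with the oil arrays at 0.93 to 0.97 over the members. Replicates 1 and 2 against the oil arrays gave a median of -0.26, with 26 below 0, and correlations of 0.38 to 0.54. The fit without BP replicate 3 gave the same median, -0.26, with 26 below 0. The within-slide value did not show the members' lower level seen across slides.

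**Figure D5:**
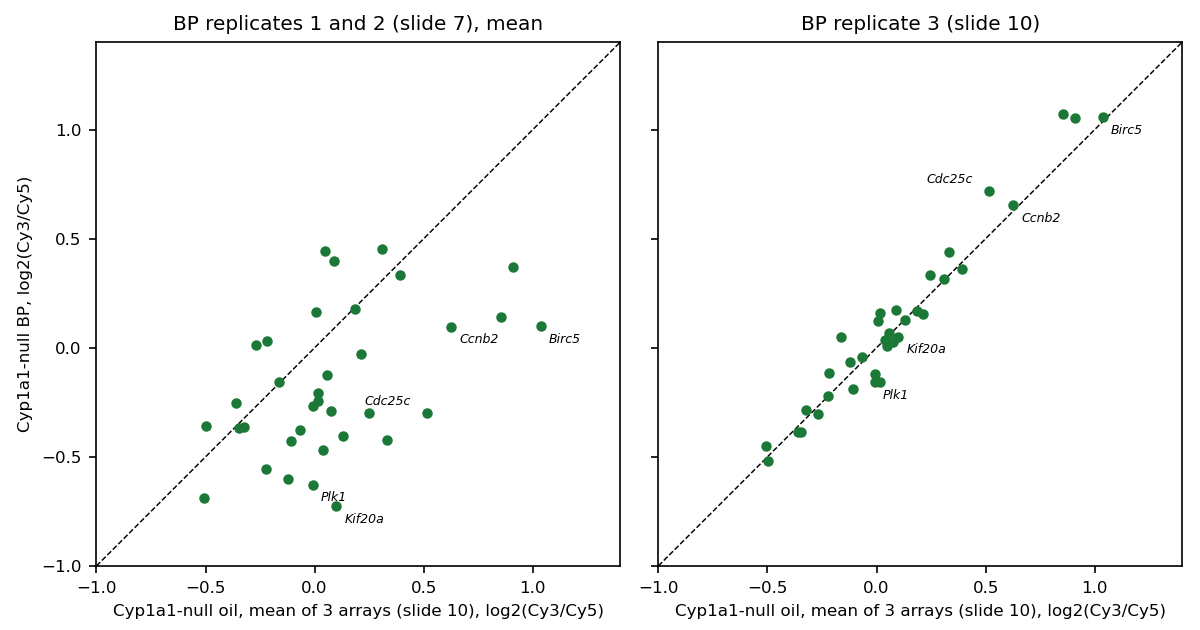
Log ratio of each of the 35 genes after BP (vertical axis) against the mean of the 3 oil arrays (horizontal axis) in Cyp1a1-null marrow, for the BP array on the oil arrays' slide and for the 2 on another slide; the dashed line marks equal values. The points of the shared slide lie along the line (median difference 0.01), and those of the other slide scatter below it (median -0.26).

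The double-null oil group was 1 array, and its spread was taken from the other groups. Against WT oil 4 members were higher with the 23 arrays (6.03% of all genes called) and none with all 24 (1.53%; 2 members at an unadjusted p under 0.05). The median change was 0.03 with the 23 arrays and -1.02 with all 24. Prc1 read 1.04 in double-null oil, against 0.34 and 0.10 in WT oil replicates 2 and 3 (0.82 ± 0.17, adjusted p = 0.0118). Ccnb1, the main mitotic cyclin, read 0.54 in double-null oil, against -0.02 and -0.51 in WT oil (0.80 ± 0.19, adjusted p = 0.0229).

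Cenpe read 0.73 in double-null oil, against 0.09 and -0.37 in WT oil (0.87 ± 0.22, adjusted p = 0.0316). Cenpa, the histone H3 variant of centromeres, read 0.71 in double-null oil, against 0.08 and -0.31 in WT oil (0.83 ± 0.22, adjusted p = 0.0379). The probes of Cenpe (-0.77 to 0.87) and Cenpa (-0.16 to 0.83) disagreed, while the 3 Ccnb1 probes ran from 0.57 to 0.80. Leaving out WT oil replicate 3 as well gave a median of 0.13, and the calls did not hold. Leaving out WT oil replicate 2 instead gave a median of -0.07. All 4 changes turned with all 24 arrays, and with slide as a random block none was called with either set (0 of 35).

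BP in double-null marrow was measured on 1 slide. No member was called with either set (0.517% of all genes with the 23 arrays, 0.283% with all 24), and 5 and 0 members had an unadjusted p under 0.05. The median change was -0.19, with 30 of 35 below 0. Prc1 had 0.45 and 0.71 in double-null BP, against 1.04 in double-null oil (-0.47 ± 0.17, adjusted p = 0.311). Ska2 had -0.82 and -0.56 in double-null BP, against -0.18 in double-null oil (-0.51 ± 0.20, adjusted p = 0.373), and Ccna2 had -0.18 and -0.17, against 0.26 (-0.43 ± 0.18, adjusted p = 0.403). In all 3 genes both BP arrays lay below the oil array. Against 1 oil array such a separation held even for Kif11 (-0.02), so it marks nothing particular.

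After BP the double-null and Cyp1a1-null groups differed in 2 members with the 23 arrays (3.68% of all genes called) and in none with all 24 (0.172%; 0 at an unadjusted p under 0.05), around a median of 0.07. Mad2l1 had 0.01 and 0.02 in double-null BP, against -0.42, -0.29 and -0.52 in Cyp1a1-null BP (0.43 ± 0.11, adjusted p = 0.0386). Ccnb1 had 0.13 and 0.19 in double-null BP, against -0.36, -0.37 and -0.39 in Cyp1a1-null BP (0.53 ± 0.14, adjusted p = 0.0488). In both the double-null arrays were above all 3 Cyp1a1-null arrays, as they were in members not called, such as Ttk (0.17, adjusted p = 0.527). The Mad2l1 level of the Cyp1a1-null arrays ran from -0.42 to -0.29 on one slide and was -0.52 on the other. Neither gene was called with either set of arrays once slide was a random block.

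Across the groups, without WT oil replicate 1, Mad2l1 was the member called most often: it was lower in WT BP, Cyp1b1-null oil and Cyp1a1-null oil against WT oil, and higher in Cyp1b1-null DMBA against its oil group and in double-null BP against Cyp1a1-null BP. The comparisons with WT oil share its arrays. Bub1, Aurka, Aurkb, Cdc20, Cdc25c, Nuf2, Kif2c, Ect2, Top2a and Mki67 were called in no comparison with the 23 arrays. Top2a, the topoisomerase that untangles chromosomes, and Mki67, the proliferation antigen Ki-67, had log ratios of 0.78 to 0.93 on the Cyp1a1-null oil arrays and of 1.07 and 1.05 on Cyp1a1-null BP replicate 3, all on one slide. On the 2 Cyp1a1-null BP arrays of the other slide Top2a read 0.24 and 0.05 and Mki67 0.46 and 0.28.

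The authors' deposited table gave members' medians of -0.28 for BP, -0.31 for TCDD and -0.52 for Cyp1b1-null oil, each against WT oil, and 0.15 for DMBA in Cyp1b1-null marrow. For the 6 comparisons with WT oil, its values correlated over the members at 0.68 to 0.83 with the changes from the 23 arrays and at 0.19 to 0.66 with those from all 24.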

How the data were processed

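The deposited scanner files, 1 per array, hold spot intensities that the authors read with Agilent Feature Extraction (9.1.3.1, and 10.7.3.1 for one slide), per the file headers; per the labels, Cy3 held the sample and Cy5 the common reference, with no dye swap. The authors' deposited table holds log2 folds of 9 comparisons, and limma is named in the submitters' processing notes with no version given. Here mean intensities were corrected with normexp (offset 50) and loess within each array, control spots and outlier flags were left out, and spots of a probe were averaged. Genes were kept where Cy3 was well above background on at least 3 of 24 arrays; 24404 passed, and 12 of them lacked a value on the double-null oil array. The share of probes above background was 38.3% to 84.8% per array, and the number of arrays limits the precision. limma 3.58.1 (R 4.3.3) fitted 10 group means in one fit for 13 comparisons, one of them an interaction, with Benjamini-Hochberg adjustment over all genes; called means an adjusted p under 0.05. Groups follow the labels, which do not say that samples of a group came from separate animals, so p-values measure the spread between these samples, which may be technical. No 2 arrays held the same signals (at least 99.7% of spots differed).

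The members and lists were chosen with earlier results of these data known, and so were the fits without WT oil replicate 1. All members are named; values by array are given for up to 4 called members per comparison plus those going the other way, or the 3 with the smallest p, and up to 2 called genes of other lists. Ube2c and Kif23 after BP, Top2a and Mki67 by slide, and the uncalled genes named where groups did not overlap were singled out after their values were seen. Same-numbered samples did not deviate together (correlations -0.25 to 0.34 over 82 pairs), so replicate numbers were not taken as pairs. On simulated data for Cyp1b1-null oil against WT oil, with 200 of 24404 genes changed, 57% of changes of 1 log2 unit and 84% of changes of 2 were called with all 24 arrays, with 7 false calls, and 69% and 97% with the 23 arrays, with 8. In the data themselves 29.7% of all genes were called with the 23 arrays, so these simulated rates do not measure the error among those calls. Alternatives were no background subtraction, processed signals, Cy3 alone, no filter, slide or replicate number as a term, and each array left out. Protein sequences were not used here.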

Additional observations from a re-analysis of the deposited data

Results flagged for a closer look

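The response to DMBA differed between Cyp1b1-null and WT marrow for 2 members, by a test of the difference itself (the interaction term in limma) without WT oil replicate 1. For Ccna2 the response of Cyp1b1-null minus that of WT was 0.76 on the log2 scale (SE 0.20, adjusted p = 0.049), and for Mad2l1 it was 0.81 (SE 0.16, adjusted p = 0.0201). In that fit 3.04% of all genes were called. With all 24 arrays no member was called (0.0082% of all genes). Both calls were lost with the scanner's processed signals, where the adjusted p was 0.0998 for Ccna2 and 0.111 for Mad2l1, and with slide as a random block, at 0.564 for Ccna2 and 0.284 for Mad2l1. On Cy3 alone the Mad2l1 difference turned to -0.39, with all genes at a median of 0.56.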

How the results depend on the processing

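Results against WT oil depended on WT oil replicate 1: with it the members' medians were -1.43 to -1.02 in the 6 comparisons with WT oil, and without it -0.47 to 0.03. Leaving out WT oil replicate 2 instead gave 26 members called in Cyp1b1-null oil, 23 in TCDD in WT, 21 in Cyp1a1-null oil, 9 in DMBA in WT and 8 in BP in WT, with replicate 1 then weighing more in the oil mean. These counts, and those under other settings below, stand without the shares of all genes called in the same fits. They are not read as results about the members. Signs below are set against the fit of all 24 arrays, so a gene that turned with WT oil replicate 1 left out has the sign given for the 23 arrays in the results; the cause was not tested. With slide as a random block no member was called in any of the 13 comparisons with all 24 arrays, nor with the 23 in any but Cyp1b1-null oil, where 6 were. Replicate numbers are not pairs here; with the replicate block and all 24 arrays, 8 members were called in Cyp1b1-null oil. Slide as a fixed term could be fitted only where groups share slides.

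With no background subtraction, members called numbered 0 in BP in WT and Cyp1a1-null oil and 3 in TCDD in WT. The members' median turned, to -0.089 in Cyp1b1-null against WT DMBA. With processed signals, members called numbered 0 in BP in WT and Cyp1a1-null oil. The median of the members turned, to -0.12 in Cyp1b1-null against WT DMBA. With Cy3 alone, members called numbered 0 in BP in WT, 3 in Cyp1b1-null oil, 2 in Cyp1a1-null oil and DMBA against TCDD and 1 in Cyp1b1-null against WT DMBA and double-null against Cyp1a1-null BP. The members' median also turned, to 0.083 in DMBA in WT, 0.16 in Cyp1a1-null oil, -0.10 in DMBA in Cyp1b1-null, -0.29 in Cyp1b1-null against WT DMBA and -0.11 in the interaction. Single genes turned in sign there: in BP in WT Cdk1 (0.28) and Mad2l1 (0.11), in TCDD in WT Cdk1 (0.15), in Cyp1b1-null oil Mad2l1 (0.062), Cenpe (0.32) and Prc1 (0.086), in Cyp1a1-null oil Ccnb2 (0.89), in double-null oil Prc1 (1.27), Ccnb1 (1.23), Cenpe (0.82) and Cenpa (0.78), in DMBA in Cyp1b1-null Mad2l1 (-0.39) and Ube2c (-0.11), in the interaction Mad2l1 (-0.53) and Ccna2 (-0.14). With slide as a random block, members called numbered 0 in BP in WT, Cyp1b1-null oil and Cyp1a1-null oil. The members' median turned there, to -0.58 in Cyp1b1-null against WT DMBA. Of single genes, these turned in sign, in DMBA against TCDD Prc1 (0.35) and Cenpf (0.38). With Cy3 alone and without WT oil replicate 1, members called numbered 0 in BP in WT, 4 in TCDD in WT and Cyp1b1-null against WT DMBA, 3 in Cyp1b1-null oil and Cyp1a1-null oil, 1 in double-null oil, 5 in DMBA against TCDD and 2 in double-null against Cyp1a1-null BP. The members' median turned, to -0.10 in DMBA in Cyp1b1-null and -0.29 in Cyp1b1-null against WT DMBA. The sign turned for single genes: in BP in WT Cdk1 (0.015), in Cyp1b1-null oil Cenpe (0.64), in Cyp1a1-null oil Ccnb2 (0.67), in double-null oil Prc1 (1.13), Ccnb1 (1.02), Cenpe (1.14) and Cenpa (0.88), in DMBA in Cyp1b1-null Mad2l1 (-0.39) and Ube2c (-0.11), in the interaction Mad2l1 (-0.39). With processed signals and without WT oil replicate 1, members called numbered 0 in BP in WT, 4 in TCDD in WT, 18 in Cyp1b1-null oil, 2 in Cyp1a1-null oil and 1 in Cyp1b1-null against WT DMBA. The median of the members turned, to -0.12 in Cyp1b1-null against WT DMBA. There single genes turned in sign: in Cyp1b1-null oil Cenpe (0.84) and Prc1 (0.16), in Cyp1a1-null oil Birc5 (1.19) and Ccnb2 (0.72), in double-null oil Prc1 (0.68), Ccnb1 (0.76), Cenpe (0.85) and Cenpa (0.71). With slide as a random block and without WT oil replicate 1, members called numbered 0 in BP in WT and Cyp1a1-null oil. Single genes turned in sign there: in Cyp1b1-null oil Cenpe (0.82) and Prc1 (0.42), in Cyp1a1-null oil Birc5 (0.95) and Ccnb2 (0.56), in double-null oil Prc1 (0.85), Ccnb1 (0.81), Cenpe (0.88) and Cenpa (0.81). With the replicate block and without WT oil replicate 1, members called numbered 2 in BP in WT, double-null oil, BP in Cyp1a1-null and double-null against Cyp1a1-null BP, 1 in TCDD in WT, Cyp1b1-null against WT DMBA and the interaction, 16 in Cyp1b1-null oil, 6 in Cyp1a1-null oil, 4 in DMBA in Cyp1b1-null and 3 in DMBA against TCDD. Of single genes, these turned in sign: in Cyp1b1-null oil Cenpe (0.79) and Prc1 (0.33), in Cyp1a1-null oil Birc5 (1.29) and Ccnb2 (0.78), in double-null oil Prc1 (0.74), Ccnb1 (0.88), Cenpe (0.84) and Cenpa (0.82). With slide as a fixed term, the members' median turned, to 0.0086 in BP in Cyp1a1-null. Leaving out each array in turn gave members called of 0 to 8 in BP in WT, 0 to 9 in DMBA in WT, 0 to 23 in TCDD in WT, 0 to 26 in Cyp1b1-null oil, 0 to 21 in Cyp1a1-null oil, 0 to 4 in double-null oil, 0 to 3 in DMBA in Cyp1b1-null, 0 to 2 in BP in Cyp1a1-null, 0 to 3 in DMBA against TCDD, 0 to 1 in Cyp1b1-null against WT DMBA, 0 to 2 in double-null against Cyp1a1-null BP and 0 to 3 in the interaction. The changes that turned in sign ran from -2.41 to 0.81 for Cenpe in Cyp1b1-null oil, -1.93 to 0.38 for Prc1 in Cyp1b1-null oil, -1.32 to 1.25 for Birc5 in Cyp1a1-null oil, -1.26 to 0.74 for Ccnb2 in Cyp1a1-null oil, -1.49 to 0.82 for Prc1 in double-null oil, -1.05 to 0.80 for Ccnb1 in double-null oil, -2.35 to 0.87 for Cenpe in double-null oil, -1.42 to 0.83 for Cenpa in double-null oil and -0.056 to 0.14 for the median in DMBA against TCDD.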
